A study of Mus musculus with 3 samples.

Results

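The genes described here are 41 genes of DNA replication and S phase, chosen by name because their proteins license and unwind DNA, copy it, supply its nucleotides or control entry into S phase. The choice was made with earlier results of these data known, so the shares beside all genes are descriptions only. A gene counted as a member if the gene name of a probe that was not a control equalled a name on the list. All 41 were found, out of 34821 gene names on the array, and they were covered by 54 probes. A probe whose spot carried an outlier mark of the scanner software on any array was left out, which left 40 members, since the only probe of Rpa2 was marked on 2 arrays. Of these 40 genes, 39 had a signal well above background on all 3 arrays, whereas Ccne2 was not well above background on any of them.

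Gene expression was measured in BMDMs, macrophages grown from bone marrow cells of C57BL/6J mice during 4 to 6 days with macrophage colony-stimulating factor (M-CSF), which came from cultured cells that make the human protein. For 20 h the BMDMs received CpG at 0.063 μg/ml, IFN-γ at 100 U/ml together with αIL-10R, or all of these agents, a condition named Triple. CpG is DNA that activates the receptor TLR9, and αIL-10R is a blocking antibody to the IL-10 receptor. Each condition had 1 array with 1 colour, and no array held unstimulated BMDMs. With single arrays no test was possible, no p-value is given, and a difference between conditions cannot be told apart from a difference between cultures. Signals are the deposited processed intensities, and log2 folds were computed after the arrays had been scaled to each other. Where 3 signals are given without conditions, the order is CpG, IFN-γ + αIL-10R and Triple, and where a pair of log2 folds is given so, Triple is set against CpG first and then against IFN-γ + αIL-10R. Replicate spots of other probes gave a technical SD of 0.13 for a log2 fold between 2 single spots, and each member probe had a single spot.

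A cell prepares to copy its genome in G1, when the origin recognition complex, Cdc6 and Cdt1 load the MCM helicase onto origins. At the start of S phase the helicase is activated with Cdc45 and the GINS complex, and polymerases, a sliding clamp and enzymes that make nucleotides follow. Many of these genes are transcribed under E2F factors around the boundary of G1 and S phase, and macrophages cultured in M-CSF are able to divide, a process that IFN-γ is known to slow.

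Triple had the lowest signals of most members. More than 2-fold lower after Triple than after IFN-γ + αIL-10R were 33 of the 39 members above background, or 84.6%, compared with 9.32% of all genes measured in the same way. The median log2 fold of the members was −1.65, and that of all genes was −0.05. Compared with CpG, 28 of 39 members (71.8%) were more than 2-fold lower after Triple, while the share among all genes was 8.34%, and the medians were −1.50 for the members and −0.06 for all genes. Because RNA was taken from whole cultures, fewer cells in S phase and less of each RNA per cell cannot be told apart.

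In the opposite direction, 0 members were more than 2-fold higher after Triple than after IFN-γ + αIL-10R (6.57% of all genes), and 1 member, Ccne1, was more than 2-fold higher after Triple than after CpG (7.48% of all genes). The same 28 members that were lower than after CpG were also lower than after IFN-γ + αIL-10R, so that 28 of 39 were lower after Triple than in both other arrays, against 4.90% of all genes. These comparisons share the Triple array, and an error in it enters each of them. By any amount, Triple had the lowest value in 35 of 39 members (89.7%), compared with 40.5% of genes with a signal well above background on each array. The 4 others were Rfc3, Pola2, Tyms and Ccne1.

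**Figure D1:**
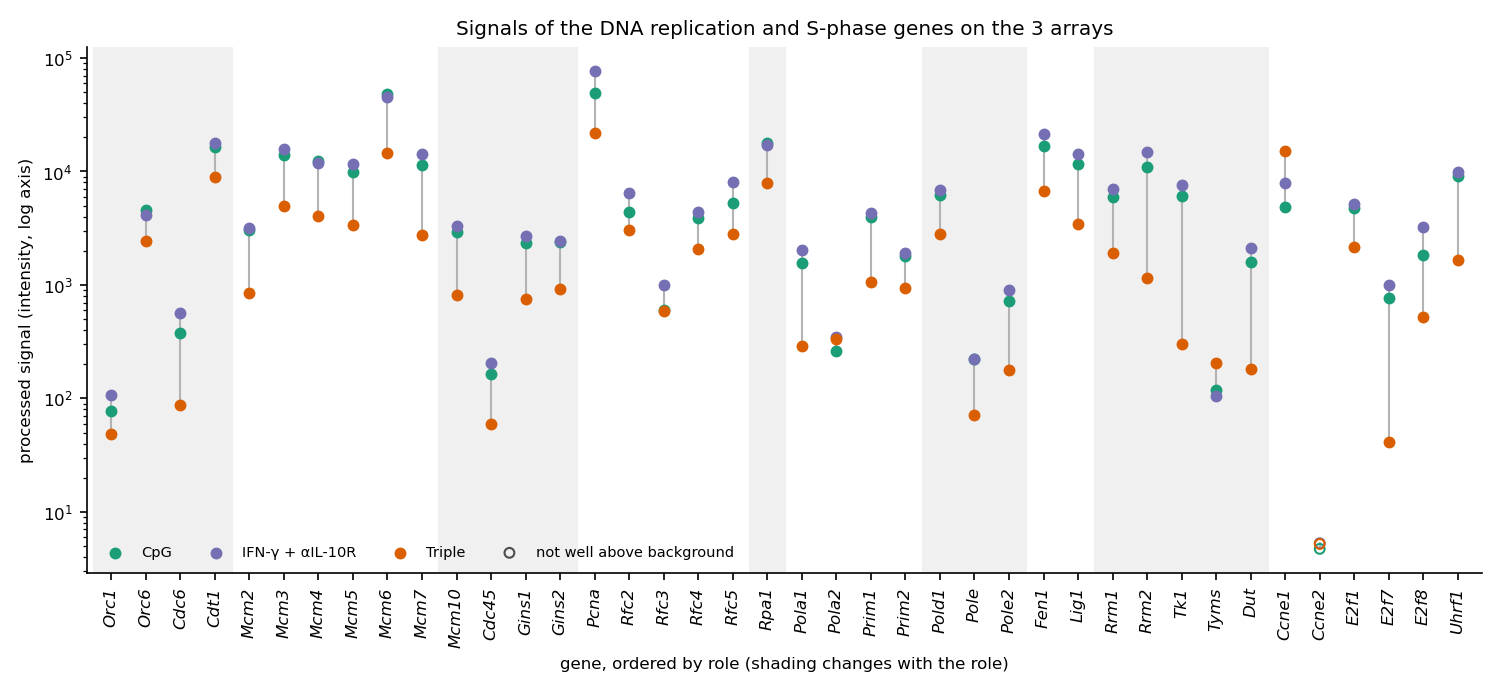
Processed signals (intensity, log axis) of the 40 measured members on the 3 arrays, ordered by role, with open circles for signals not well above background. The Triple array has the lowest signal of most genes, Tk1 and E2f7 have the widest gaps, and Ccne1 and Tyms have their highest signal after Triple.

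Promoters are shown because most members moved together. RefSeq promoter windows on GRCm38.p6, from 250 bases before to 50 bases after a start site, were given for 34 of the 41 members in 39 windows, and Mcm4, Gins1, Gins2, Rfc2, Prim2, Pole and Ccne2 were not matched. The windows were searched on both strands for the E2F strings TTTGGCGC, TTTCCCGC, TTTCGCGC and TTTGCCGC, which can overlap each other on opposite strands. At least 1 of these 4 strings occurred in the windows of 14 of 34 members (41.2%) and of 2.60% of all 27025 gene symbols. Counted over windows, the shares were 35.9% of the 39 and 2.26% of all 32851. Among members more than 2-fold lower after Triple than after IFN-γ + αIL-10R the string occurred in 12 of 27, and among the others in 2 of 7, Cdt1 and Rfc3, where the 7 include Rpa2, which was not measured. A match describes the letters of the window, not a bound site, and a window without a match lacks only these letters.

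The 250 bases before the start site are printed for 7 members, 5′ to 3′ on the strand of the gene, with E2F strings of either strand in capitals. Mcm5 and Mcm6 were chosen for strings that overlap on opposite strands, Cdc6, Pola1 and E2f7 for a single string beside a large fall after Triple, Tk1 for a large fall and a window without a string, and Ccne1 for its rise over CpG. Rrm2 and Dut, with log2 folds of −3.68 and −3.49 against IFN-γ + αIL-10R, also had no string in their windows and are not printed.
Cdc6, chr11:98907901-98908150, plus strand: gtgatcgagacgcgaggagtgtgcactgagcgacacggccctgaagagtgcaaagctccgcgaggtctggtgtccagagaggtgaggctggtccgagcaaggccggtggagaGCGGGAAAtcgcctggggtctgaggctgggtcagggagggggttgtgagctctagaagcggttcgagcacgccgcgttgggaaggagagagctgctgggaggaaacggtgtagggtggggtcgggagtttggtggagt
Mcm5, chr8:75109259-75109508, plus strand: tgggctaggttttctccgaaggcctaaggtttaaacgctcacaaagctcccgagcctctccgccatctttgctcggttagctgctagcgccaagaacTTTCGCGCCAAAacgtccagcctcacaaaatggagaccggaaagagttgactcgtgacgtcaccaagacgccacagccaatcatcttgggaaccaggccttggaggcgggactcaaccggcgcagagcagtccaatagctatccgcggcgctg
Mcm6, chr1:128359706-128359955, minus strand: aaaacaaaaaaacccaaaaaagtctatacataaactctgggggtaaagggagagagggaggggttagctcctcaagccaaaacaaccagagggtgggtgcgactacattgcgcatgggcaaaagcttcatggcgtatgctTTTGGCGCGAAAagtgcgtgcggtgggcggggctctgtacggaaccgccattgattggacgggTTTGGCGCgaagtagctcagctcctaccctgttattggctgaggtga
Pola1, chrX:93632156-93632405, minus strand: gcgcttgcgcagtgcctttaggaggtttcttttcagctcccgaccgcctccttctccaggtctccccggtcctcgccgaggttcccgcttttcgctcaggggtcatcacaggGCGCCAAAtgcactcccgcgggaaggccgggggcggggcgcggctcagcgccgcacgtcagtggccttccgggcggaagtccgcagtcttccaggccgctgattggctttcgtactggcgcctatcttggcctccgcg
Tk1, chr11:117826015-117826264, minus strand: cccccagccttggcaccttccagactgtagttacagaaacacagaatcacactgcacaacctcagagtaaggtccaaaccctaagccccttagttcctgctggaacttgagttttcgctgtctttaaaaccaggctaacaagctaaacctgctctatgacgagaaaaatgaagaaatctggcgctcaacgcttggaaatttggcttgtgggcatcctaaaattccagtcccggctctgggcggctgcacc
Ccne1, chr7:38107491-38107740, minus strand: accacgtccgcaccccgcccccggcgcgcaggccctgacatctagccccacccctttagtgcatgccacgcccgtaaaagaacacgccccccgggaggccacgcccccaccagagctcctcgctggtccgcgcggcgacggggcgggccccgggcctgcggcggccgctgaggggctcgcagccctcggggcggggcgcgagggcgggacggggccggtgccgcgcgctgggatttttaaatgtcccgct
E2f7, chr10:110745189-110745438, plus strand: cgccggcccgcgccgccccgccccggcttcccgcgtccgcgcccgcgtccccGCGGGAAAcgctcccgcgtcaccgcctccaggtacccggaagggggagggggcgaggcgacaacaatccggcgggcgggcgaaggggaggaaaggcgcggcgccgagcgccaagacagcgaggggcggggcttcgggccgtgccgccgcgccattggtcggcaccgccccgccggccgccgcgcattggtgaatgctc

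Counted from the start site, the overlapping strings begin at −153 and −149 in Mcm5 and at −110 and −106 in Mcm6, and Mcm6 has another at −47. The plot of string positions shows these before the start site, whereas those of Cdt1, Pold1, Pole2, Lig1 and Mcm3 lie after it. Other elements were searched in the same windows. The CHR element, TTTGAA, which is known from promoters of genes used late in the cycle, occurred for 4 of 34 members (11.8%), compared with 20.2% of all gene symbols. The CCAAT box, with the letters CCAAT, was found for 20 of 34 (58.8%), compared with 41.1%, and the GC box, GGGCGG, for 26 of 34 (76.5%), compared with 38.2%.

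**Figure D2:**
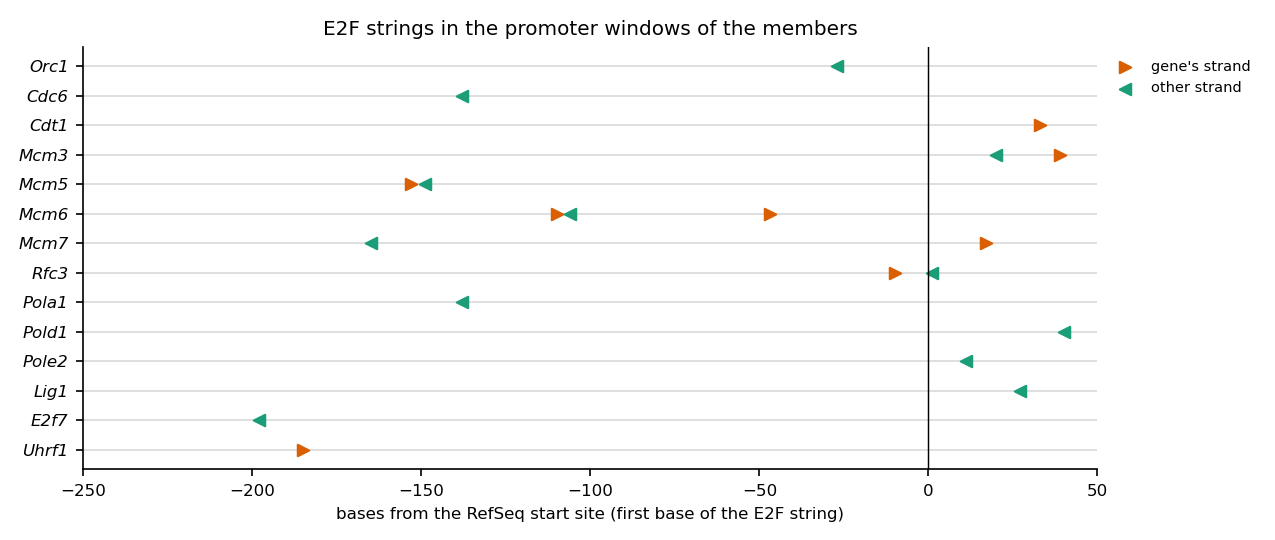
Position of the first base of each E2F string relative to the RefSeq start site, in bases, for the 14 members with a match, with triangles pointing right for the strand of the gene and left for the other strand. Strings are found on both sides of the start site, and 5 of the member windows hold more than 1.

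Of the roles, origin licensing had the smallest share of members past the threshold against IFN-γ + αIL-10R. Orc1, a subunit of the origin recognition complex, was dim, with signals of 78.0 after CpG, 106 after IFN-γ + αIL-10R and 48.8 after Triple. Its log2 fold after Triple was −1.09 against IFN-γ + αIL-10R and −0.62 over CpG, and the former became −0.52 with normexp background correction. Orc6, another subunit of the complex, had the smallest difference of this group against IFN-γ + αIL-10R, with 4611 after CpG, 4129 after IFN-γ + αIL-10R and 2439 after Triple, or log2 folds of −0.86 and −0.73.

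Cdc6, the ATPase that loads the helicase together with the complex, had signals of 379 after CpG, 562 after IFN-γ + αIL-10R and 88.0 after Triple. Triple was the low array by 6.25-fold against IFN-γ + αIL-10R and by 4.14-fold against CpG, and another Cdc6 probe gave log2 folds of −2.61 and −2.80. The log2 fold of the main probe against IFN-γ + αIL-10R changed from −2.64 to −1.95 with normexp. Over CpG it was −2.05, and the smallest fall in any alternative was −1.41. Cdt1, the loading partner that is degraded once S phase starts, was bright on all arrays, at 16594 after CpG, 17859 after IFN-γ + αIL-10R and 8871 after Triple. Its log2 folds of −0.85 and −0.98 lay inside the threshold, the latter by less than 1 technical SD, and normexp, quantile, spike-in and no scaling moved the latter past it, at most to −1.11. Of the 4 licensing genes, 2 were more than 2-fold lower after Triple than after IFN-γ + αIL-10R and 1, Cdc6, was more than 2-fold lower than after CpG.

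The MCM helicase has 6 subunits, and all 6 genes were more than 2-fold lower after Triple in both comparisons. Mcm2 had signals of 3044 after CpG, 3177 after IFN-γ + αIL-10R and 841 after Triple. Mcm5, whose promoter is printed for its overlapping strings, had 9942, 11680 and 3376, from a probe on chromosome 8 from 77651350 to 77651410 on mm9. The CpG and IFN-γ + αIL-10R arrays lay close together for both genes, with log2 folds between these arrays of −0.09 for Mcm2 and −0.26 for Mcm5.

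Mcm7 had the largest fall of the helicase genes, from 11355 after CpG and 14151 after IFN-γ + αIL-10R to 2746 after Triple. Mcm4 had the smallest against IFN-γ + αIL-10R, with signals of 12287, 11995 and 4063. The log2 folds of the 6 genes after Triple ranged from −2.33 to −1.53 against IFN-γ + αIL-10R and from −1.99 to −1.42 over CpG, a narrower range than in the licensing group. Mcm6 had 48560 after CpG, 45362 after IFN-γ + αIL-10R and 14468 after Triple. Both probes of Mcm3 gave similar log2 folds against IFN-γ + αIL-10R, −1.63 and −1.66.

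The genes that turn the loaded helicase into an active one, Mcm10, Cdc45, Gins1 and Gins2, were also more than 2-fold lower after Triple than in both other arrays, 4 of 4. Mcm10, which is needed for the helicase to start unwinding, had signals of 2935 after CpG, 3315 after IFN-γ + αIL-10R and 816 after Triple. Gins2, a subunit of the GINS complex, had 2371, 2416 and 920. The log2 folds of this group against IFN-γ + αIL-10R lay between −1.99 for Mcm10 and −1.36 for Gins2. Cdc45, which joins the helicase at the origin, was dim, at 164, 204 and 59.8, and its log2 fold over CpG changed from −1.40 to −0.78 with normexp.

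The sliding clamp PCNA holds polymerases on DNA, and the Rfc genes encode subunits of the complex that loads it. Pcna had signals of 48838 after CpG, 76982 after IFN-γ + αIL-10R and 21664 after Triple. Its log2 folds were −1.80 against IFN-γ + αIL-10R and −1.12 over CpG, and CpG itself was lower than IFN-γ + αIL-10R by a log2 fold of −0.68. All 5 genes of the group were lower after CpG than after IFN-γ + αIL-10R, by log2 folds from −0.75 to −0.22.

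In this group 4 of the 5 genes were more than 2-fold lower after Triple than after IFN-γ + αIL-10R, but 1, Pcna, was more than 2-fold lower than after CpG. Rfc3 had signals of 603 after CpG, 999 after IFN-γ + αIL-10R and 593 after Triple. CpG and Triple did not differ for this gene beyond the technical SD, with a log2 fold of 0.03 that ranged from −0.06 to 0.11 over the ways of scaling. Rfc5 changed more, with 5244, 8131 and 2815. For Rfc2, Rfc4 and Rfc5 the log2 folds were −1.05, −1.07 and −1.50 against IFN-γ + αIL-10R, and −0.47, −0.86 and −0.84 over CpG. Another Rfc4 probe gave −1.14 over CpG, past the threshold.

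Replication protein A coats single-stranded DNA. Rpa1, its large subunit, had signals of 17658 after CpG, 17137 after IFN-γ + αIL-10R and 7935 after Triple, so that Triple was the low array, by 2.14-fold against CpG and by 2.11-fold against IFN-γ + αIL-10R. Another probe of the gene also passed the threshold against CpG, at −1.17. For Rpa2, with the marked spots kept, the signals were 1373, 1727 and 1037, and Triple was then lower by less than 2-fold, with log2 folds of −0.35 and −0.70.

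Polymerase α and primase start each new strand with a short primer, and the 4 genes of this complex did not move together. Pola1, the catalytic subunit, fell most of them, from 1553 after CpG and 2045 after IFN-γ + αIL-10R to 287 after Triple, 5.20-fold and 6.96-fold lower. Pola2, its accessory subunit, had signals of 261, 350 and 333, so that Triple lay next to IFN-γ + αIL-10R and the lowest signal was that of CpG. Its log2 fold after Triple was −0.04 against IFN-γ + αIL-10R, from −0.18 to 0.08 over the ways of scaling, and 0.41 over CpG.

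The primase subunits were both lower after Triple. Prim1, which makes the RNA primer, had 3930 after CpG, 4296 after IFN-γ + αIL-10R and 1059 after Triple. Prim2, its partner, had 1816, 1927 and 932, and its log2 folds of −0.91 and −1.02 lay on either side of the threshold. Of the 4 genes, 3 passed the threshold against IFN-γ + αIL-10R and 2 against CpG.

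Polymerases δ and ε copy the lagging and the leading strand. Pold1, the catalytic subunit of polymerase δ, had the smallest change, with signals of 6190 after CpG, 6860 after IFN-γ + αIL-10R and 2817 after Triple. Pole2, a subunit of polymerase ε, had the largest, with 724, 898 and 177, or log2 folds after Triple of −1.97 over CpG and −2.31 against IFN-γ + αIL-10R. Pole, the catalytic subunit of polymerase ε, was read from a dim probe at 221, 221 and 72.0, with log2 folds of −1.56 and −1.58. A brighter Pole probe was marked as an outlier on all 3 arrays and gave −1.70 and −2.30 in the same order, whereas another Pole probe was not well above background on any array. With normexp or with the mean of its probes, Pole no longer passed the threshold. As reported, all 3 genes were more than 2-fold lower after Triple than in both other arrays.

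Fen1 and Lig1 trim and join the short fragments of the lagging strand. Fen1, the flap nuclease, had signals of 16933 after CpG, 21449 after IFN-γ + αIL-10R and 6700 after Triple. Lig1, the ligase, had 11653, 14218 and 3443. Both genes were highest after IFN-γ + αIL-10R and lowest after Triple, with log2 folds of −1.65 and −2.01 against IFN-γ + αIL-10R, and of −1.28 and −1.70 over CpG.

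**Figure D3:**
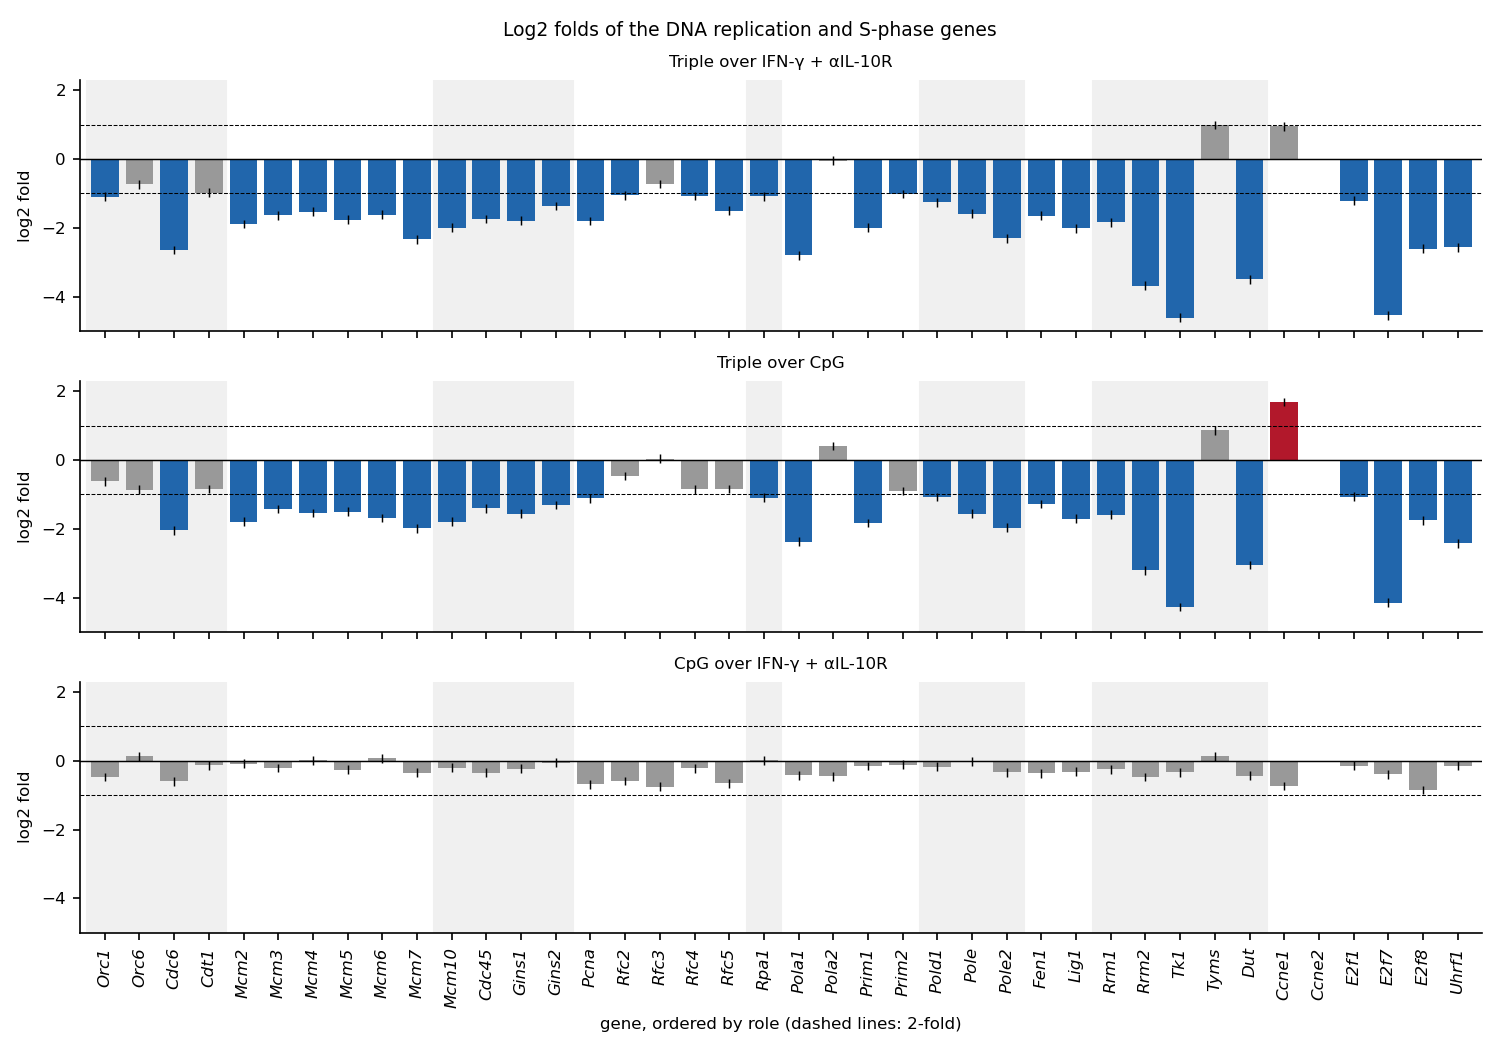
Log2 folds of the members for the 3 comparisons, with blue bars for genes more than 2-fold lower, a red bar for the gene more than 2-fold higher, grey bars for the rest, and error bars of 1 technical SD (0.13), which do not include differences between cultures. As processed, the largest falls after Triple were those of Tk1 and E2f7, though that of Rrm2 was larger than that of E2f7 with normexp and than that of Tk1 with the mean of probes, no bar passes the threshold for CpG against IFN-γ + αIL-10R, and Ccne2 has no bar because it was not above background.

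Nucleotide supply had the lowest median fold of any role. Tk1, thymidine kinase of the salvage pathway, had signals of 6098 after CpG, 7546 after IFN-γ + αIL-10R and 303 after Triple, from a probe on chromosome 11 from 117676845 to 117676904 on mm9. Triple was 24.4-fold lower than IFN-γ + αIL-10R and 19.4-fold lower than CpG. Counted from the largest fall, Tk1 ranked 7 of the 16133 genes above background on both arrays in the former comparison, and 9 of 16271 in the latter. Another Tk1 probe gave log2 folds of −4.15 and −4.39, and yet another was not well above background on any array.

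Ribonucleotide reductase makes deoxyribonucleotides from ribonucleotides, and its subunit genes differed in size of change. Rrm1, the large subunit, had 5994 after CpG, 6999 after IFN-γ + αIL-10R and 1920 after Triple, or log2 folds of −1.59 over CpG and −1.84 against IFN-γ + αIL-10R. Rrm2, the small subunit whose level follows S phase, had 10983, 14975 and 1141 from a probe on chromosome 12 from 25398824 to 25398883 on mm9. Its log2 folds after Triple were −3.21 over CpG and −3.68 against IFN-γ + αIL-10R. Dut, which keeps uracil out of DNA by removing dUTP, had 1581, 2102 and 183, with log2 folds of −3.05 and −3.49.

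Tyms, thymidylate synthase, makes thymidine nucleotides by the other route and did not follow these genes. Its only probe was dim, with signals of 117 after CpG, 106 after IFN-γ + αIL-10R and 206 after Triple, which made Triple the high array. The log2 fold after Triple was 0.86 over CpG and 0.99 against IFN-γ + αIL-10R, the latter less than 1 technical SD inside the threshold. Some other ways of scaling put it past the threshold, and it was 0.65 with normexp. Of the 5 nucleotide genes, 4 were more than 2-fold lower after Triple in both comparisons.

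Among the regulators, Ccne1 did not follow the E2F genes. Ccne1, a cyclin that activates Cdk2 at the start of S phase, had signals of 4864 after CpG, 7959 after IFN-γ + αIL-10R and 15043 after Triple, from a probe on chromosome 7 from 38882937 to 38882960 on mm9. Triple was thus the high array and CpG the low array of this gene. Its log2 fold after Triple was 1.68 over CpG and 0.95 against IFN-γ + αIL-10R, the latter inside the threshold by less than 1 technical SD and between 0.82 and 1.06 over the ways of scaling. Another Ccne1 probe gave 1.76 and 0.70, and −1.06 for CpG against IFN-γ + αIL-10R, past the threshold that the main probe (−0.74) did not pass. Ccne2, the other cyclin E gene, was not well above background on any array, with signals of 4.72, 5.29 and 5.22, and no fold is given.

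E2f1, an activator of S-phase genes, was moderately lower after Triple, with signals of 4737 after CpG, 5153 after IFN-γ + αIL-10R and 2176 after Triple. E2f7 and E2f8 are the atypical E2F factors, which repress E2F targets and are themselves made in S phase. E2f7 had 769, 990 and 41.6 from a probe on chromosome 10 from 110224331 to 110224390 on mm9, and the Triple signal was near the lowest that counted as well above background on that array, 26.3. Triple was 17.8-fold lower than CpG and 23.3-fold lower than IFN-γ + αIL-10R, log2 folds of −4.15 and −4.54 that became −2.68 and −3.04 for E2f7 with normexp. A dimmer E2f7 probe, marked as an outlier on all 3 arrays, disagreed, with signals of 73.7, 79.3 and 89.4 and log2 folds of 0.34 and 0.20.

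E2f8 had signals of 1832 after CpG, 3243 after IFN-γ + αIL-10R and 522 after Triple. Its log2 fold of CpG against IFN-γ + αIL-10R, −0.85, was the largest in that comparison among the main probes of the members. Uhrf1, which guides maintenance of DNA methylation at replication forks, had 9165, 9910 and 1645. For E2f1, E2f8 and Uhrf1 the log2 folds after Triple were −1.07, −1.75 and −2.42 over CpG, and −1.21, −2.60 and −2.56 against IFN-γ + αIL-10R. Another Uhrf1 probe was not well above background after Triple, and its signals after CpG and IFN-γ + αIL-10R were 102 and 87.9.

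CpG and IFN-γ + αIL-10R differed little. More than 2-fold lower after CpG were 0 of 39 members (5.85% of all genes), and more than 2-fold higher were also 0 (5.06% of all genes). The median log2 fold of the members was −0.26 and that of all genes was 0.00. By any amount, CpG was lower in 34 of 39 members (87.2%), compared with 50.5% of the genes above background on both arrays, and the count was between 29 and 36 in the alternative analyses. The difference exceeded 2 technical SD in 20 members, each lower after CpG. Differences of this size were common, since the lower and upper quartiles of all genes, −0.31 and 0.28, also lay beyond 2 technical SD.

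The 5 members not lower after CpG were Orc6, Mcm4, Mcm6, Rpa1 and Tyms, with log2 folds from 0.01 to 0.13, and those of Mcm4 and Rpa1 changed sign with the scaling, as did that of Pole (−0.02). After E2f8, the largest differences of main probes were those of Rfc3 (−0.75), Ccne1 (−0.74) and Pcna (−0.68). The order from IFN-γ + αIL-10R through CpG to Triple, from high to low, was seen in 31 of 39 members (79.5%) and in 20.7% of genes above background on each array.

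**Figure D4:**
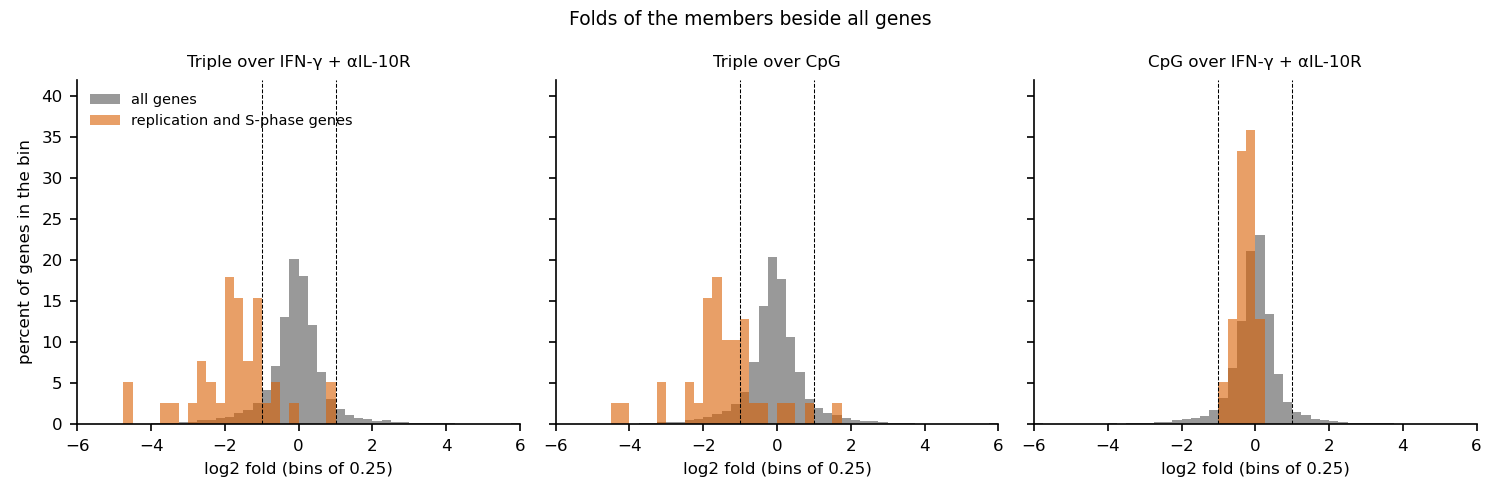
Distribution of log2 folds, in percent of genes per bin, for the members above background and for all genes, with dashed lines at 2-fold. In Triple against IFN-γ + αIL-10R and over CpG the members are shifted to the left (medians −1.65 and −1.50), whereas in CpG against IFN-γ + αIL-10R they stay between the lines (median −0.26).

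The folds after Triple spread widely within the list. More than 4-fold lower than after IFN-γ + αIL-10R were 11 of 39 members. More than 8-fold lower were 4, namely Tk1, E2f7, Rrm2 and Dut, which were also the 4 members more than 8-fold lower than after CpG. Among all genes above background on both arrays, counted from the largest fall, Lig1, the smallest fall of the 11, ranked 358 of 16133. Dut, the smallest fall of the 4, ranked 45 of 16133, and 57 of 16271 against CpG. Of the 4, Rrm2 kept more than 8-fold against both arrays in each alternative. With the mean of its probes, dim ones included, Tk1 had log2 folds of −2.74 and −2.99 and Dut of −1.74 and −2.34, and normexp brought E2f7 and Dut under 8-fold against CpG, the latter to −2.63, and some other ways of scaling also put Dut just under 8-fold against CpG, at −2.98 with median scaling. By role, the median log2 fold against IFN-γ + αIL-10R was −3.49 for nucleotide supply, −2.56 for the regulators, −1.70 for the MCM helicase, −1.07 for the clamp and its loader and −1.04 for licensing, groups of 4 to 6 genes. Within 2 technical SD of the threshold lay 7 of the 33 members lower than after IFN-γ + αIL-10R and 4 of the 28 lower than after CpG. Of probes other than the main probe that were above background on both arrays, marked probes included, 7 of 8 had the direction of the main probe in each comparison with Triple, and the exception was that of E2f7.

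Other genes of replication had a median in the same direction that was closer to 0. Of 45 such genes, 42 were above background in the comparison with IFN-γ + αIL-10R, and 21 of them were more than 2-fold lower after Triple and 0 higher. The median log2 fold of these other replication genes was −0.92. Dscc1, part of an alternative clamp loader, had the largest change among those above background on both arrays, with log2 folds of −2.80 and −3.08. Clspn, a checkpoint mediator at the fork, was not well above background after Triple and was at least 11.3-fold lower than after IFN-γ + αIL-10R, where the bound uses the lowest signal well above background.

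Orc2 and Orc3, further subunits of the origin recognition complex chosen for mention after their values had been seen, differed from IFN-γ + αIL-10R by less than 1 technical SD, with log2 folds of 0.06 each. Compared with CpG, 18 of 42 genes of this list (42.9%) were more than 2-fold lower after Triple and 1 (2.38%) was higher. Among all genes these shares were 8.34% and 7.48%. The higher gene was Rnaseh2b, a subunit of the nuclease that removes RNA from DNA. Its signals were 2060, 3227 and 5312 in the order CpG, IFN-γ + αIL-10R and Triple. Samhd1, which degrades deoxyribonucleotides, was lower after CpG, at 39610, than after IFN-γ + αIL-10R, at 112314, and had 70960 after Triple. Its other probes also had their lowest signal after CpG, but against IFN-γ + αIL-10R they gave log2 folds after Triple of 0.12 and 0.53, and the main probe gave −0.63.

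Of 18 genes that govern entry into S phase, 5 (27.8%) were more than 2-fold lower after Triple than after IFN-γ + αIL-10R and 1 (5.56%) was higher. Among all genes these shares were 9.32% and 6.57%. The median log2 fold of the 18 genes was −0.82. Against CpG 6 (33.3%) were lower and 1 (5.56%) was higher, compared with 8.34% and 7.48% of all genes, and the median was −0.59. Ccnd1, the D-type cyclin induced by growth factors, had signals of 21065 after CpG, 54254 after IFN-γ + αIL-10R and 6253 after Triple. Ccnd2, a related cyclin, had 1302, 9710 and 5068, so that its low array was CpG and not Triple. Ccna2, the cyclin of S phase and G2, had 3433, 4940 and 371, a log2 fold of −3.70 against IFN-γ + αIL-10R.

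E2f2, an activator like E2f1, had signals of 3318 after CpG, 5378 after IFN-γ + αIL-10R and 477 after Triple, a log2 fold of −3.47 against IFN-γ + αIL-10R. E2f3, E2f4 and E2f5 differed by less than 2-fold, with log2 folds against IFN-γ + αIL-10R of 0.11, 0.20 and 0.18. That of Rb1, the retinoblastoma protein that restrains E2F, was −0.13. Myc, a growth regulator, went against the list, with 1658, 461 and 1059, or 2.35-fold higher after Triple than after IFN-γ + αIL-10R. The activators E2f1 and E2f2 were lower after Triple by more than 2-fold, whereas E2f3 was not.

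Inhibitors of cyclin-dependent kinases hold cells in G1, and 7 of their genes were examined. Cdkn1a, which encodes p21, was lower after Triple by less than 2-fold, at 15967 after CpG, 16266 after IFN-γ + αIL-10R and 10991 after Triple, and its dimmer probes disagreed. Cdkn1b, which encodes p27, had 3249, 3673 and 3403, a log2 fold against IFN-γ + αIL-10R of −0.08. Cdkn2b, an inhibitor of Cdk4 and Cdk6, was high in both arrays that had CpG, with 326, 35.1 and 218, or 6.33-fold higher after Triple than after IFN-γ + αIL-10R.

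Cdkn2c and Cdkn2d, of the same family, were lower after Triple, with log2 folds against IFN-γ + αIL-10R of −3.21 and −1.42. Cdkn1c had signals of 785, 246 and 95.6, highest after CpG, and the main probe of Cdkn2a was not well above background on any array. Another Cdkn2a probe, marked as an outlier on 2 arrays, had signals of 82.4 and 130.0 after CpG and IFN-γ + αIL-10R and was not well above background after Triple. Of the 6 inhibitor genes with a main probe above background, 3 were more than 2-fold lower after Triple than after IFN-γ + αIL-10R and 1 was higher. Csf1r, the receptor for M-CSF on which the growth of these cells depends, was bright on all arrays, at 196810 after CpG, 230482 after IFN-γ + αIL-10R and 159074 after Triple, log2 folds of −0.25 and −0.50. Its ligand gene Csf1 had 313, 1178 and 564.

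**Figure D5:**
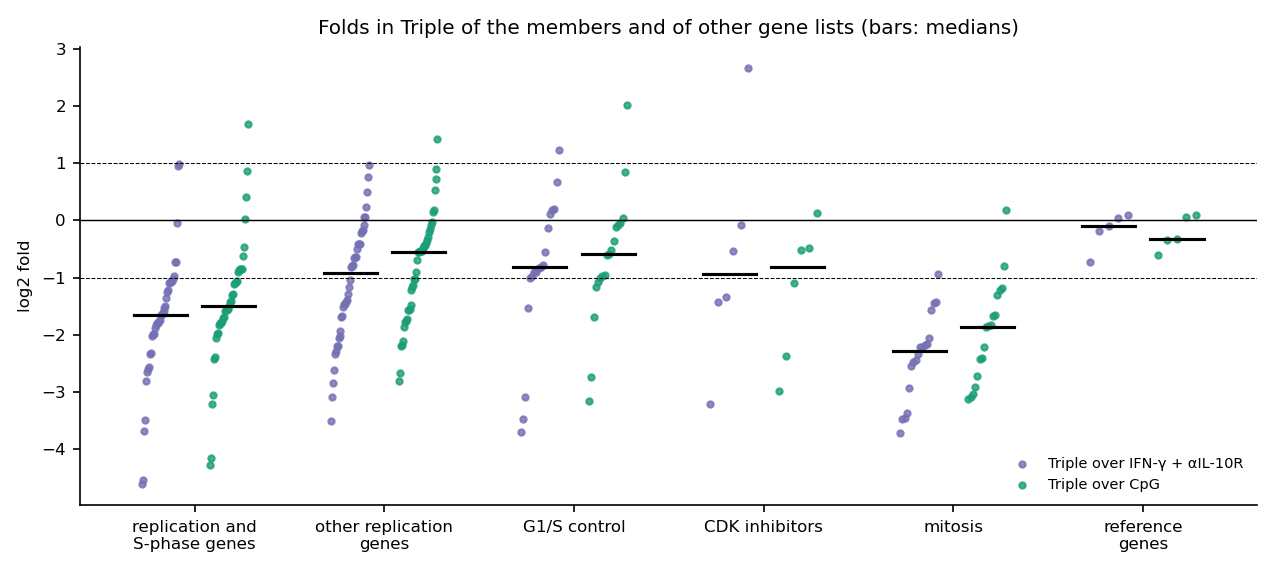
Log2 folds after Triple of the members and of other gene lists, with a point per gene above background on at least 1 of the 2 arrays and a bar at the median of each list. The members and the mitosis genes lie lowest, and the reference genes differ by less than 2-fold.

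Mitosis genes were lower as well, with 17 of 18 above background (94.4%) more than 2-fold lower after Triple than after IFN-γ + αIL-10R. The share of all genes was 9.32%. The median log2 fold of the mitosis genes was −2.28. The largest changes measured on both arrays were those of Kif11, Plk1 and Nusap1. This median was lower than that of the replication genes, and the difference was not tested. In the promoter windows of these genes, the CHR element occurred for 12 of 17 (70.6%) and an E2F string for 1. Genes used as references differed by less than 2-fold, with log2 folds against IFN-γ + αIL-10R from −0.72 for Hprt to 0.09 for Actb and a median of −0.10 over 5 genes. Over CpG they ranged from −0.60 for Hprt to 0.09 for Gapdh, with a median of −0.33.

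The label of the cells was checked against marker genes. All 7 macrophage markers measured were well above background on all arrays, with summed signals of 610800 after CpG, 572600 after IFN-γ + αIL-10R and 522300 after Triple, and the brightest was Csf1r. Single macrophage markers differed more than the sums, and Cd14 was 16.8-fold higher and Cd68 2.25-fold lower after Triple than after IFN-γ + αIL-10R. Markers of other cells were read as well. Of the 6 T cell markers Cd3e and Lck were above background, with a sum over the list of 984, 1063 and 981 in the order CpG, IFN-γ + αIL-10R and Triple, whereas Cd3d, Cd3g, Cd2 and Cd8a were at background on each array. Of the B cell markers Cd79a and Cd79b were above background, the latter with signals of 801, 182 and 108, whereas Ms4a1, Pax5 and Ebf1 were at background. The 4 NK cell markers summed to 250, 246 and 221, nearly all of it Prf1, and Ncr1, Klrb1c and Gzma were at background. Epor was the only 1 of 6 erythroid markers above background on any array, with 168, 107 and 80.1 summed over the list, and 0 of 3 mast cell or basophil markers were.

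Some markers of other cells were lowest after Triple, as most members were. Of the progenitor markers, Kit and Cd34 were above background on at least 1 array and Flt3 on none. Cd34 had 85.4, 634 and 27.1, the last not well above background, so that it was highest in the array in which most members were highest. The megakaryocyte list summed to 47400, 32060 and 11070, nearly all of it Pf4, while Gp1bb had 35.4, 37.4 and 34.0, and Itga2b and Gp9 were at background. The neutrophil list, with 5 of 8 genes above background on any array, summed to 3850, 9457 and 4879. The highest value of this sum is that of Ly6g alone, with 555, 7699 and 2658, whereas Elane had 2839, 1615 and 1539 and S100a8 had 297, 55.7 and 517, and Mpo, Ltf and Ngp were at background. Of the 5 fibroblast markers measured 4 were above background on any array, with sums of 544, 332 and 629, Col1a2 as the brightest gene and Pdgfra at background. The part of these cells in the change of the replication genes was not tested.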

How the data were processed

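For each of the 3 arrays (Agilent mouse, 8 × 60K), the authors deposited the scanner output of Feature Extraction 10.10.1.1, in which the processed signal is an intensity with background and spatial trend subtracted and surrogates for dim spots. The log2 values that the authors deposited as a table equalled the log2 processed signal less a constant for each array, and their column medians were −4.262, −4.377 and −4.268. The αIL-10R dose was 1.25 μg/ml. The arrays lay on the same slide, each at its own position.

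Controls and spots marked as outliers, in the feature or its background, were omitted. Of 59305 spots, 46.0% (CpG), 44.8% (IFN-γ + αIL-10R) and 44.4% (Triple) were well above background. Log2 spots were averaged by probe, and arrays were aligned at the 75th percentile of the 21229 probes well above background on each (4550, 4473 and 4378 as signals). The brightest probe stood for a gene, for 33597 genes. Dim signals were lifted to the lowest signal well above background, so that folds against them are bounds. A gene was counted past 2-fold if the brighter array was well above background, and shares and medians cover genes well above background on at least 1 array compared (18055, 18326 and 18271). The number of arrays and the signal over background limit the precision.

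Named genes were, in each role, those with the largest and smallest change of Triple against IFN-γ + αIL-10R, a fixed set of central genes and all exceptions, and of other lists up to 3 with the largest change and any against the majority. Rnaseh2b is such an exception. Orc2, Orc3, Samhd1 and the probes of Gmnn and Cdkn1a were picked after their values were seen. The members and the lists were chosen with earlier results of these data known. The RefSeq table of GRCm38.p6 gave the same symbol for all 39 main probes with a RefSeq accession. Probe positions are on mm9 and promoters on GRCm38.p6.

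Alternatives were background correction by normexp with an offset of 50 (limma 3.58.1 in R 4.3.3), 6 other sources of scale (75th percentile of all probes, median, quantile, spike-in with 5 of 10 probes, none, the authors' table), no filter or lower limit, both arrays well above background, the mean of probes, single probes, outlier spots kept, and thresholds of 1.5-fold and 3-fold. Leaving out members with a spot in the first 48 rows of the array was added after seeing the data. The code was tested on simulated data. Python 3.11.15, numpy 2.4.6, pandas 2.3.3 and matplotlib 3.10.9 were used.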

Additional observations from a re-analysis of the deposited data

How the results depend on the processing

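No paired analysis was possible, since every condition held a single array. Against IFN-γ + αIL-10R, the count of members lower in Triple ranged from 22 to 36 over 14 alternatives, and 27 of the 33 were past 2-fold in each of the 11 alternatives computed gene by gene at that threshold. The others, Orc1, Rfc2, Rfc4, Rpa1, Prim2 and Pole, lay under 2-fold in at least 1. The count of members higher rose from 0 to 2, Tyms and Ccne1, with the 75th percentile over all probes, with median scaling, with the authors' table and with a 1.5-fold threshold, and to 1, Tyms, with quantile normalization. Spike-in scaling moved the median of the members from −1.65 to −1.78 and that of all genes from −0.05 to −0.18 alike.

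Against CpG, the count of members lower in Triple, and of those lower than in both other arrays, was 16 in place of 28 with a 3-fold threshold, which is stricter by construction, and 2 members in place of 1 were higher at 1.5-fold. Of the 28, 25 were past 2-fold in each of the 11 alternatives, without Cdc45, Pole and E2f1. At 1.5-fold, 7 members in place of 0 were lower with CpG than with IFN-γ + αIL-10R. No member past 2-fold reversed its direction in these alternatives, and where a cause is not named it was not tested. Without the 5 members with a spot in the first 48 rows of the array, an alternative chosen after seeing the data, 28 members in place of 33 were lower than with IFN-γ + αIL-10R, among fewer members above background. As a share of these members, the count was then 82.4% in place of 84.6%. The number of arrays and, for dim probes such as those of Orc1, Cdc45, Pole and Tyms, the signal over background limit these values.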

Other observations

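Gmnn, which encodes geminin, the inhibitor of Cdt1, had 2 probes that went opposite ways. The brighter probe (NM_020567) had signals of 2007 after CpG, 3039 after IFN-γ + αIL-10R and 652 after Triple, a log2 fold of −2.19 against IFN-γ + αIL-10R. The other probe, whose accession in the array design is AK131677, was not well above background with CpG, and had 41.9 after IFN-γ + αIL-10R and 564 after Triple, a log2 fold of 3.78. Which RNA the latter probe reads was not tested.

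Cdkn1a was read by 3 probes with unlike changes. The bright probe gave a log2 fold against IFN-γ + αIL-10R of −0.53, and a dimmer probe of another transcript (NM_001111099) gave −2.21, with signals of 361, 627 and 133 in the order CpG, IFN-γ + αIL-10R and Triple. The dimmest probe gave 0.14, with signals of 70.3, 39.3 and 42.2 in the same order.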
